A study of Mus musculus with 3 samples.

Results

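Genes of the marginal zone and follicular B cells of the spleen were followed across 3 spleens that carried islet grafts. Cr2, Cd1d1, Cd9, Notch2, Dtx1, S1pr1 and S1pr3 stand for marginal zone B cells, and Fcer2a and Klf2 stand for follicular B cells. They were chosen by name, and every probe of the array that bears one of these names was used. This gave 9 genes on 12 probes, of 34797 gene names on 55679 probes. A single probe reads each of 6 of the genes, while Cr2, Cd1d1 and Notch2 have 2 probes each. All 12 probes were well above background on at least 1 array, and 11 were so on all 3.

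Total RNA of whole spleen was hybridized to one-color mouse arrays, with 1 array for each condition. The recipients were male C57BL/6 mice (C57BL/6J in the labels) made diabetic with streptozotocin, and all 3 samples received 25 syngeneic islets in the spleen and 100 under the kidney capsule. Sample 1 was the spleen on day 0, just after transplantation, Sample 2 the spleen on day 2, and Sample 3 the spleen on day 139, after the kidney with the capsular graft had been taken out on day 100. The labels of Samples 1 and 2 list the splenic islets alone, whereas the protocol given with them covers both grafts. The methods give a single range of young adult ages for all mice of the study. Any mouse behind Sample 3, taken 139 days after the graft, must have been older than that range. Neither the age of each spleen at harvest nor the number of mice behind an array is given in the sources used here. No spleen without a graft was analysed here. The diabetic state, the times since streptozotocin, surgery and graft, the age of the mice and the nephrectomy cannot be told apart between the samples.

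With 1 array per condition there are no replicates, and no difference between the samples was tested. A probe is called higher or lower where its ratio reached 1.5 in that direction. The error printed with a log2 ratio is the scanner software's own error of both signals carried to the ratio, and it leaves out the spread between mice. The stricter rule of the study asked also for a Z-score of at least 2. How its SD was taken is not given in the sources used here, so each log2 ratio was set against the SD among the 1000 probes closest in brightness, and with 1 SD over all probes the rule took 0 of the 12 probes in every comparison. Signals are intensities after quantile normalization, and the signal of a probe is compared between samples, never with that of another probe. The arrays had 54.4%, 53.8% and 50.4% of their probes well above background, and none of their gene spots was saturated.

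The labelled tissue was borne out by its markers, since all 5 spleen mesenchyme genes, including Tlx1 and Nkx2-5, and all 14 B cell genes of the list were well above background on the 3 arrays. B cells of the spleen lie in follicles and in the marginal zone around them. Follicular B cells recirculate and answer protein antigens with help from T cells. Marginal zone B cells stay next to the blood sinus, answer blood-borne antigens fast, and carry much complement receptor CD21 and CD1d. Notch2 signaling drives a B cell to the marginal zone fate, and the sphingosine 1-phosphate receptors S1PR1 and S1PR3 hold it in the zone. CD23, the product of Fcer2a, is high on follicular B cells and low on marginal zone B cells, which is the usual way to part the cells by flow cytometry.

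The first 30 bases of 4 probes are shown, because Fcer2a and S1pr3 are the genes that differed most and because the pair of Cr2 probes gave different ratios. Each is printed 5′ to 3′, with its place on mm9.
Fcer2a, chr8:3682343-3682402, minus strand: atctgggatgagtcctcccatcaagtttgc
S1pr3, chr13:51517079-51517138, plus strand: tcactgatattaatcacacattgtacagga
Cr2, brighter probe, chr1:196965532-196965591, minus strand: tggcctacagattgttcttgtgatatttca
Cr2, dimmer probe, chr1:196963012-196963071, minus strand: catgacaataatggactagaactctgaact
The coordinates span the whole probe of 60 bases. Whether a probe lies in a coding exon or a UTR was not determined, since no annotation of this build was used here.

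Between day 0 and day 139, Fcer2a, S1pr3 and Klf2 were higher and the other 6 genes stayed inside 1.5-fold by their brighter probe. Over all 32108 detected probes, 12.8% were higher by this limit and 15.2% lower in this comparison. Of the 7 marginal zone genes 1 was higher, a share near that of all probes, and 0 were lower. Both follicular genes were higher. The median log2 ratio was 0.23 over the marginal zone genes, 1.16 over the follicular genes and -0.02 over all detected probes.

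Sample 3 over Sample 2 gave 2 higher genes, S1pr3 and Fcer2a, and 0 lower ones, with 12.4% of all detected probes higher and 14.9% lower. The median log2 ratio was 0.36 over the marginal zone genes and 0.67 over the follicular genes, beside -0.04 over all probes. Sample 2 over Sample 1 gave 1 higher gene, Fcer2a, and 0 lower ones, with 10.1% of all detected probes higher and 10.7% lower. Here the medians were -0.10 for the marginal zone genes, 0.49 for the follicular genes and 0.01 for all probes. Sample 3 held the highest signal for 8 of the 9 genes, the exception being Cd9. Over Sample 1, Notch2 and S1pr1 were higher by less than the scanner error, at log2 ratios of 0.13 and 0.20. The share of all probes that were highest in Sample 3 is not given here, so this count has no scale.

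By the stricter rule of the study, 1 of the 12 probes was up-regulated from day 0 to day 139, 0 from day 2 to day 139 and 1 from day 0 to day 2, and Fcer2a was the gene each time. The same rule took 2.59%, 2.54% and 1.83% of all detected probes in these comparisons. No member was down-regulated by it.

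**Figure D1:**
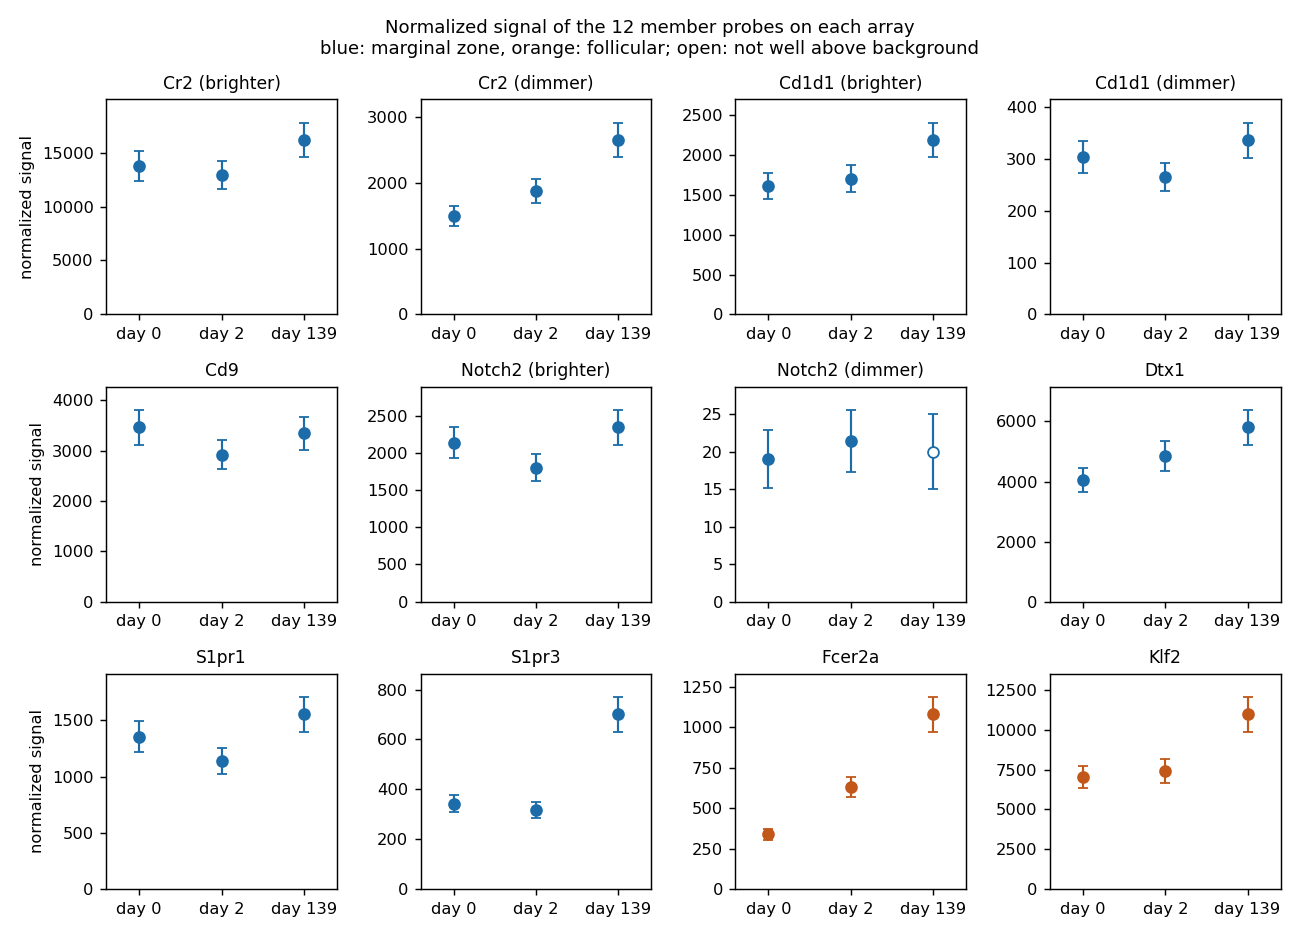
Normalized signal (linear axis from 0) of each of the 12 probes in the 3 samples, with 1 array per sample. Bars are the scanner software's error, blue marks marginal zone and orange follicular genes, and the open point marks the signal that was not well above background; Fcer2a and S1pr3 have their day 139 signals, 1080 and 700, higher than those of day 0, 339 and 342.

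Cr2 encodes the complement receptors CD21 and CD35, which take up antigen coated with complement on B cells and on follicular dendritic cells. Its brighter probe read 13762, 12898 and 16161 in Samples 1, 2 and 3. The log2 ratio of day 139 over day 0 was 0.23 ± 0.20, and that of day 2 over day 0 was -0.09 ± 0.20. Most of this spread came with the normalization, since the processed signals before it were 14092, 14206 and 14371. The normalization likewise raised the log2 ratio of day 139 over day 0 of every member probe, as for Cd9 from -0.25 to -0.05. The log2 ratio of day 2 over day 0 turned to 0.02 when arrays were scaled to the 75th percentile instead.

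The dimmer Cr2 probe read 1491, 1872 and 2646 in Samples 1, 2 and 3, a steady order from day 0 to day 139. Its ratio of day 139 over day 0 was 1.77, past the limit, with a log2 ratio of 0.83 ± 0.20. Both probes carry the same transcript accession and lie on the same strand of chromosome 1, so the gene is read as higher by one of them and as little different by the other. Their log2 ratios differed by 0.60 between day 0 and day 139, against a scanner error of 0.29 for that difference. For day 139 over day 2 they differed by 0.17, less than the same error.

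Cd1d1 encodes the CD1d molecule that shows lipid antigens to NKT cells. The brighter probe (chr3:86799791-86799850) read 1608, 1703 and 2188. Its log2 ratio was 0.44 ± 0.20 for day 139 over day 0 and 0.08 ± 0.20 for day 2 over day 0. The dimmer probe (chr3:86800368-86800427) read 305, 266 and 337, with a log2 ratio of 0.14 ± 0.21 for day 139 over day 0. Sample 3 was highest by both probes, and neither reached 1.5-fold in any comparison.

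Cd9 encodes a tetraspanin of the cell surface that marginal zone B cells share with plasma cells and platelets. Its probe (chr6:125410387-125410446) read 3469 in Sample 1, 2924 in Sample 2 and 3346 in Sample 3. Day 2 was the lowest, with a log2 ratio over day 0 of -0.25 ± 0.20. Samples 1 and 3 lay within the scanner error of each other, at a log2 ratio of -0.05 ± 0.20, which became 0.34 when the arrays were scaled to the spike-in controls.

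Notch2 encodes the receptor whose signal sets the marginal zone fate. Its brighter probe (chr3:97953914-97953973) read 2138, 1798 and 2343 in Samples 1, 2 and 3. Day 139 over day 2 gave a log2 ratio of 0.38 ± 0.20, and day 139 over day 0 gave 0.13 ± 0.20. Samples 1 and 3 were thus within the error, and Sample 2 was the lowest of the 3. The other Notch2 probe (chr3:97951233-97951292) read 19.1, 21.5 and 20.0 and was not well above background in Sample 3, where the lowest signal that passed was 18.2. At this brightness its errors of 0.40 to 0.47 on the log2 scale exceeded every ratio it gave.

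Dtx1 encodes Deltex1, a ubiquitin ligase that Notch signaling induces in B cells. Its probe (chr5:121130278-121130337) read 4053, 4848 and 5807. The log2 ratio was 0.52 ± 0.20 for day 139 over day 0, a ratio of 1.43 that ended just under the limit. Each step, day 0 to day 2 and day 2 to day 139, was 0.26 on the log2 scale and little over the error of 0.20.

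The rest of the Notch pathway was read from a list of 24 ligand, processing, partner and target genes, all of them on the array. From day 0 to day 139, 2 were higher and 1 lower, with a list median of -0.00 beside 0.13 for the brighter Notch2 probe and 0.52 for Dtx1. Hes5, a transcriptional target of Notch, read 402, 329 and 605 and was just past the limit, with a log2 ratio of 0.59. The targets Nrarp, Hes1 and Hey1 stayed inside the limit in this comparison, at -0.48, -0.13 and 0.25. Hey2, another target, was well above background in Sample 3 alone and was at least 1.70-fold higher there than in Sample 1. The lower gene was Notch1, the receptor that sets the T cell fate, which fell from 577 to 304, a log2 ratio of -0.92.

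Among the partners of Notch2, the ligand gene Dll1 read 608, 521 and 474, a log2 ratio of -0.36 between day 0 and day 139. Rbpj, the DNA-binding partner of the cleaved receptor, read 545, 546 and 615. Mfng, a glycosyltransferase that tunes Notch receptors in B cells, read 2274, 2135 and 3386, with log2 ratios of 0.57 over Sample 1 and 0.67 over Sample 2. Lfng, another glycosyltransferase of the list, read 608, 558 and 584, with log2 ratios of -0.06 and 0.07 for the same comparisons. Adam10, the protease that cuts Notch2, gave a log2 ratio of -0.20 from day 0 to day 139. In the list as a whole, 3 genes were higher and 1 lower for day 139 over day 2, and 0 higher and 1 lower for day 2 over day 0. The lower gene of day 2 over day 0 was the target Hes1, at a log2 ratio of -0.60.

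S1pr1 encodes the receptor that draws lymphocytes toward blood and lymph. Its probe (chr3:115414020-115414079) read 1356, 1137 and 1553. Sample 2 was the lowest, at a log2 ratio of -0.25 ± 0.20 to Sample 1, and Sample 3 over Sample 2 gave 0.45 ± 0.20. Samples 1 and 3 differed by less than the error, at 0.20. S1pr1 is also a gene of T cells and endothelium, whose marker lists had medians of 0.78 and -0.38 for day 139 over day 0.

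S1pr3, the receptor that is higher in marginal zone than in follicular B cells, read 342 in Sample 1, 318 in Sample 2 and 700 in Sample 3. Those of day 0 and day 2 were alike within the error, at a log2 ratio of -0.10 ± 0.20, and day 139 stood apart from both. The ratio of day 139 was 2.05 over day 0 and 2.20 over day 2, with log2 ratios of 1.03 ± 0.20 and 1.14 ± 0.20. Of all detected probes, 94.2% had a lower ratio than S1pr3 for day 139 over day 0 and 95.1% for day 139 over day 2. The Z-scores were 1.45 and 1.85, short of the limit of 2.

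S1pr3 was the only one of the 7 marginal zone genes to pass 1.5-fold by its brighter probe. Other receptors of the family were also higher in Sample 3 than in Sample 1. S1pr2, which confines B cells to germinal centers, read 64.4, 131 and 235, a log2 ratio of 1.87. S1pr4, a receptor of blood cells, gave 1.01 and S1pr5, a receptor of natural killer cells, gave 0.95.

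The list of 15 further sphingosine 1-phosphate genes had 4 higher and 1 lower from day 0 to day 139, the fourth being Cd69, which takes S1PR1 off the surface, at a log2 ratio of 0.65. Sphk1, a kinase that makes sphingosine 1-phosphate, fell from 9102 in Sample 1 and 8780 in Sample 2 to 4244 in Sample 3, a log2 ratio of -1.10 over day 0. Spns2, the exporter of the lipid from endothelium, read 858, 1134 and 1192. The median of this list was 0.19 for day 139 over day 0 and 0.25 for day 139 over day 2.

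**Figure D2:**
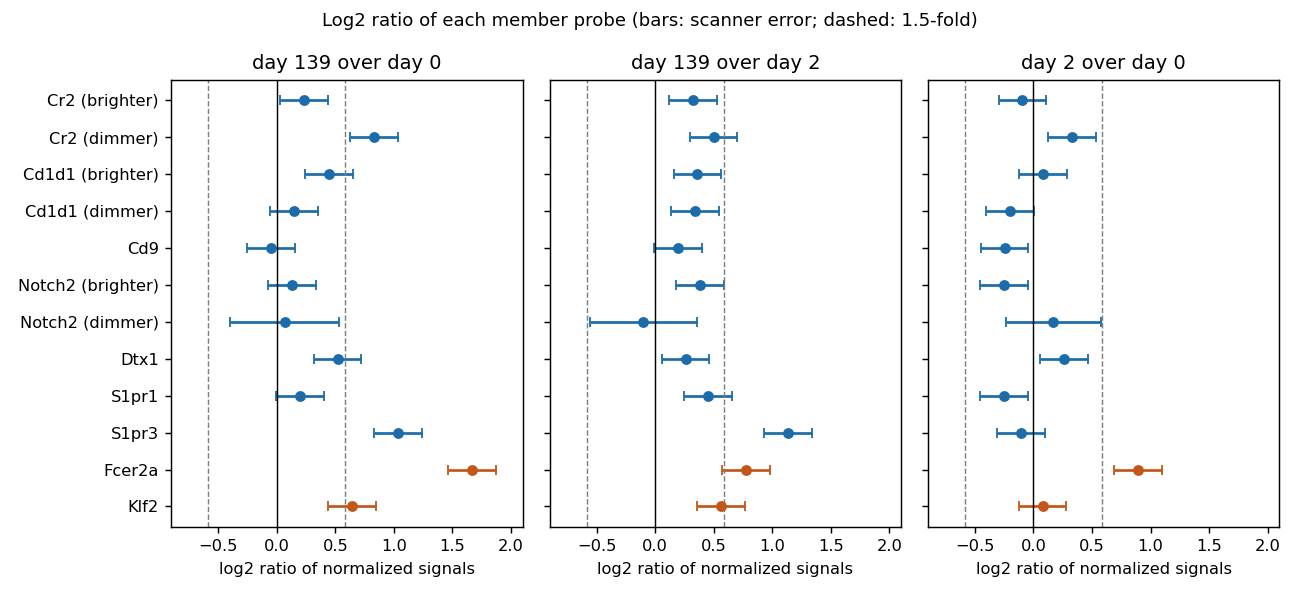
Log2 ratio of each probe in the 3 comparisons, with bars for the scanner error and dashed lines at 1.5-fold. Fcer2a lies right of the upper line in all 3 panels, S1pr3 in the 2 panels of day 139, and no probe lies left of the lower line.

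Fcer2a encodes CD23, the low affinity receptor for IgE. Its probe read 339 in Sample 1, 631 in Sample 2 and 1080 in Sample 3, so that the signal was higher in each later sample by more than the error. The ratio was 1.86 for day 2 over day 0, 1.71 for day 139 over day 2 and 3.18 for day 139 over day 0. On the log2 scale these were 0.90 ± 0.20, 0.77 ± 0.20 and 1.67 ± 0.20. Of all detected probes, 97.1% had a lower ratio for day 139 over day 0, and 94.9% for day 2 over day 0. With the normexp background correction the log2 ratio of day 139 over day 0 was 1.42.

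The genes nearest to Fcer2a were sought by the distance in the log2 ratios of days 2 and 139 over day 0, among 10188 probes with a signal of at least 500 on every array, a minimum that Fcer2a itself did not reach in Sample 1. They were Fxyd6, which encodes a regulator of the sodium pump, at a distance of 0.14 (1688, 2879 and 5584), Prkcb, the protein kinase C of B cell receptor signaling, at 0.24 (1501, 2604 and 4112), and Pafah1b3 at 0.29. For Cr2, by its brighter probe, the nearest were Smap2, Osbpl2 and Ythdc1. These distances rest on 3 arrays, and how many probes lie near a gene depends on the size of its ratio: 2 probes lay within 0.25 of Fcer2a and 2141 of 10186 within 0.25 of Cr2.

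Klf2 encodes a transcription factor that keeps B cells in the follicular state, and its loss from B cells enlarges the marginal zone. The probe (chr8:74845137-74845196) read 7028, 7417 and 10967. Samples 1 and 2 were alike within the error, at a log2 ratio of 0.08 ± 0.20, and Sample 3 was above both. Its ratio was 1.56 over Sample 1, past the limit by less than the error, and 1.48 over Sample 2. Before normalization the log2 ratio over Sample 1 was 0.42, inside the limit, and after it 0.64. Klf2 is likewise a gene of T cells and endothelium.

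Read together, the marginal zone median lay 0.92 below the follicular median on the log2 scale for day 139 over day 0, 0.31 below for day 139 over day 2 and 0.59 below for day 2 over day 0. The follicular median is the mean of only 2 genes, and for day 2 over day 0 these were apart, Fcer2a at 0.90 and Klf2 at 0.08. The lists of other marginal zone and other follicular genes described below had the opposite order for day 2 over day 0, with medians of 0.08 and -0.16. In both comparisons of day 139 they had the same order as the members. With Cr2 read by its dimmer probe, the first of these gaps was 0.71.

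**Figure D3:**
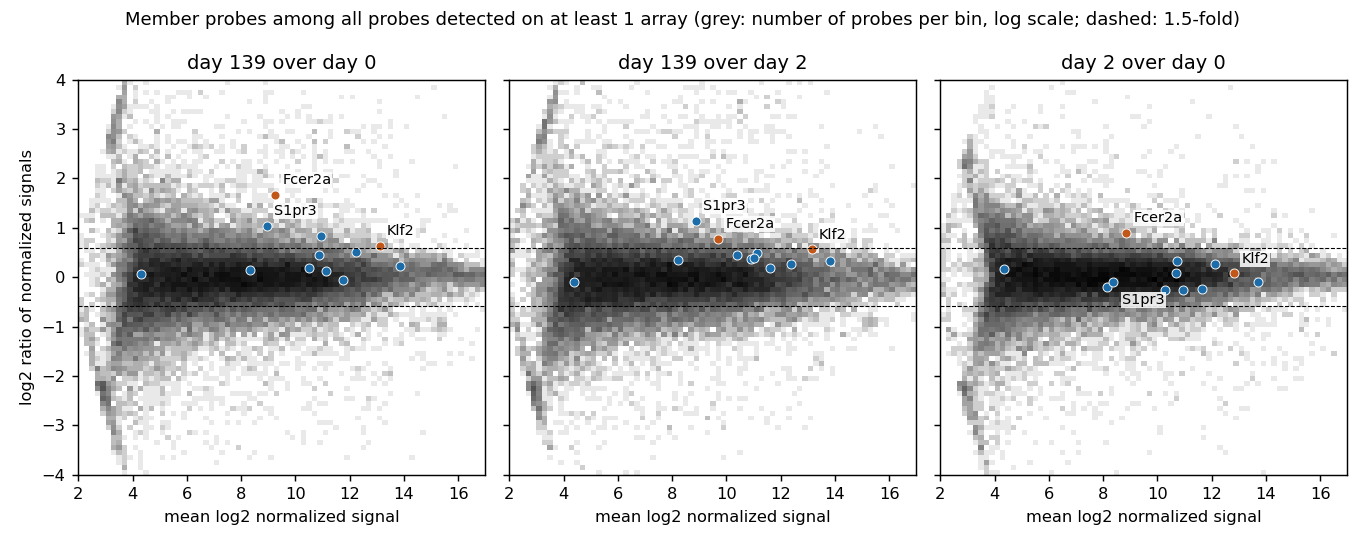
Log2 ratio against mean log2 normalized signal of the 32108 detected probes (grey bins, log color scale) with the 12 probes in blue (marginal zone) and orange (follicular), and dashed lines at 1.5-fold. Fcer2a and S1pr3 lie above most probes of their brightness for day 139 over day 0, while most marginal zone probes lie within the body of the distribution.

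General B cell genes gave a scale for these ratios. From day 0 to day 139 all 14 genes of a B cell list had a log2 ratio above 0 and 13 were higher by 1.5-fold, with a median of 1.05, a lowest value of 0.58 for Pax5, the B cell lineage factor, and a highest of 1.94 for Blk, a kinase of the B cell receptor. All 7 marginal zone genes, read by their brighter probes, lay below this median, S1pr3 by 0.02 and so within its error. Most probes lay there too, since 94.2% of all detected probes had a lower ratio than S1pr3. Of the marginal zone genes, 6 of 7 lay below every gene of the B cell list, as did 87.1% of all detected probes. With the dimmer Cr2 probe, 5 of 7 lay below every B cell gene. Their median was 0.82 below that of the B cell list. The follicular genes fell on both sides of it, Fcer2a above at 1.67 and Klf2 below at 0.64. Erythroid genes moved the other way in the same comparison, with 9 of 9 log2 ratios below 0, 6 lower and 0 higher by 1.5-fold, a median of -0.85 and summed signals of 119082, 99057 and 78344 in Samples 1, 2 and 3, and their part in the B cell ratios was not tested. In whole tissue, fewer cells of a type and less RNA per cell cannot be told apart.

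For day 139 over day 2 the B cell median was 0.94, and 6 of the 7 marginal zone genes lay below it, the exception being S1pr3 at 1.14. Both follicular genes lay below it as well, Fcer2a at 0.77 and Klf2 at 0.56. So did most probes, since 91.5% of all detected probes had a lower ratio than Fcer2a. The follicular median was 0.27 below that of the B cell list. Of the 7 marginal zone genes 5 lay below every B cell gene, or 4 with the dimmer Cr2 probe, as did 80.6% of all detected probes. From day 0 to day 2 the B cell median was 0.06 and the 14 genes ran from -0.38 to 0.55, with none past 1.5-fold. Fcer2a, at 0.90, was above every one of them, and all 7 marginal zone genes lay within their range.

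**Figure D4:**
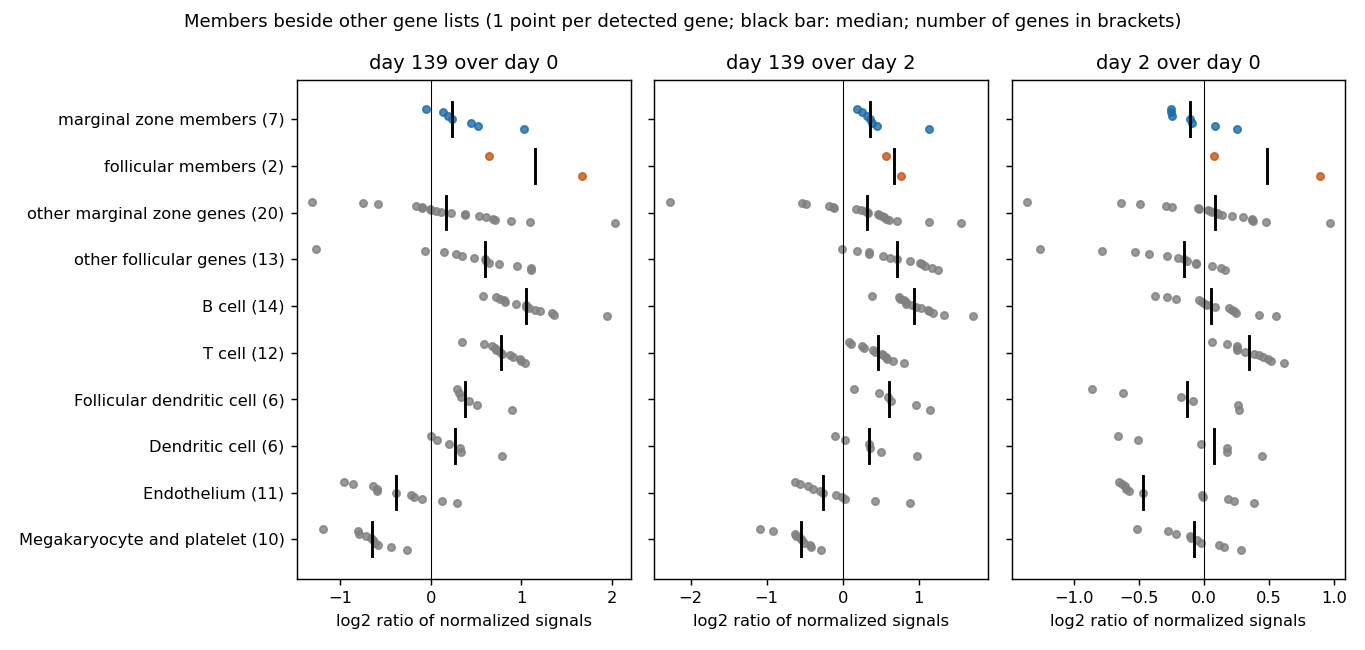
Log2 ratios of the 7 marginal zone genes (blue) and the 2 follicular genes (orange) beside other gene lists (grey), with 1 point for each detected gene, read by its brightest probe, and a black bar at each median. For day 139 over day 0 the B cell bar stands at 1.05, the marginal zone bar at 0.23 and the follicular bar at 1.16.

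A list of 20 other genes tied to marginal zone B cells had a median log2 ratio of 0.17 for day 139 over day 0, with 6 genes higher and 2 lower. Its highest gene was Mzb1, at 2767, 3859 and 11388 and a log2 ratio of 2.04. Mzb1 is also an antibody assembly factor of plasma cells, whose 6 markers had a median of 1.26 in the same comparison. Its lowest gene among those well above background on all arrays was Ackr3, a scavenger of the chemokine CXCL12, at 1590, 619 and 946. Ackr3 was lowest in Sample 2, with a log2 ratio of -1.36 over Sample 1, and Sample 3 over Sample 1 gave -0.75. The list had 4 higher and 1 lower for day 139 over day 2 and 1 higher and 2 lower for day 2 over day 0.

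A list of 13 other follicular genes had a median of 0.60 for day 139 over day 0, with 7 higher and 1 lower, and 0.72 for day 139 over day 2, with 8 higher and 0 lower. Fcmr, the receptor for IgM, was the highest at 6969, 7273 and 15029, a log2 ratio of 1.11 over Sample 1. Il4ra, the receptor for the cytokine IL-4 that raises CD23 on B cells through STAT6, was the lowest. It read 783 in Sample 1, 328 in Sample 2 and 326 in Sample 3, a log2 ratio of -1.27 for day 139 over day 0. The log2 ratio of Fcer2a was 1.67 in that comparison, and a link between these genes was not tested. For day 2 over day 0 the list had 0 higher and 2 lower and a median of -0.16, beside 0.90 for Fcer2a.

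Other cells of the spleen also carry some of the members. Their marker lists are given with summed signals, which the brightest probes of a list dominate. Follicular dendritic cells, which bear CD21 and CD23 as well, had 6 of 6 markers well above background, a summed signal of 79232, 83348 and 104680 in Samples 1, 2 and 3, and a median log2 ratio of 0.38 for day 139 over day 0. The 12 T cell genes, with sums of 21148, 28515 and 37530, had 11 higher and 0 lower. The 11 endothelial genes summed to 15516, 15832 and 13569, with 0 higher and 5 lower, and 1 of them was not well above background in Sample 2. The 10 megakaryocyte and platelet genes, with sums of 35649, 38687 and 22516, had 0 higher and 7 lower. Dendritic cell genes, 6 in number, with sums of 6143, 5867 and 7455, had 1 higher and 0 lower. The 5 red pulp macrophage genes summed to 60495, 28110 and 41161, with 1 higher and 2 lower. The part of these and other cells in the values of the members, S1pr3, Notch2 and Cd1d1 included, was not tested. The higher S1pr3 signal of day 139 is thus one of whole spleen and was not assigned to B cells.

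Markers of cells that neighbour or follow from these B cells were read as well. Of 3 markers of macrophages in or next to the marginal zone, which need not read the same cells, Marco encodes a scavenger receptor. It read 22779, 16599 and 9380 and fell by 1.28 on the log2 scale from day 0 to day 139. Siglec1 gave 0.15, and Cd209b was not well above background in Samples 2 and 3. Of 5 germinal center genes 4 were higher in Sample 3 than in Sample 1, led among those measured on every array by Rgs13, a regulator of G protein signaling, at 24.4, 20.0 and 334. The part of germinal center and plasma cells in the B cell values above was not tested.

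The stretch of 250 bases before the start sites was searched on both strands for TGGGAA, a core letter string bound by RBPJ, CCACCC, bound by KLF factors, and TTCNNNNGAA, bound by STAT6, because these factors act on the members' known regulation. The start sites came from RefSeq on GRCm38.p6, where 7 of the 9 genes matched, with 9 promoters. Not listed were Cd1d1 and S1pr1. TGGGAA was in 21.6% of 32851 promoters and in 4 of the 9 member promoters, those of Cd9 and Cr2 and 2 of the 3 of Fcer2a. CCACCC was in 28.1% of all promoters and in 6 of the 9, those of Cr2, Dtx1, Klf2 and S1pr3 and 2 of the 3 of Fcer2a. TTCNNNNGAA was in 5.85% of all promoters and, among the members, in 1 of the 3 promoters of Fcer2a, where it overlapped a match to TGGGAA.

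Printed 5′ to 3′ on the strand of the gene are the promoter of Fcer2a with the last of these matches and, for comparison, that of Cr2, with all matches in capitals.
Fcer2a, chr8:3690862-3691111, minus strand: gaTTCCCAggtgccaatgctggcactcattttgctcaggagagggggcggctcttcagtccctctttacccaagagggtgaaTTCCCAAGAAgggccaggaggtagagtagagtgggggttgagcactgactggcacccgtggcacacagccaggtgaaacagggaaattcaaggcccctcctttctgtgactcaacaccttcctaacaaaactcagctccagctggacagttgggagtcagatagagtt
Cr2, chr1:195176720-195176969, minus strand: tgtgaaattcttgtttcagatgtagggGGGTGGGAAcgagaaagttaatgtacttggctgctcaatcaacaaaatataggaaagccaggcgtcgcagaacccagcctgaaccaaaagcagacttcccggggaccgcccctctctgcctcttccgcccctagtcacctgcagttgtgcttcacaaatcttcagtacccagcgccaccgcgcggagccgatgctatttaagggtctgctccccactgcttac
The match to TTCNNNNGAA in Fcer2a runs from 168 to 159 bases before the start site. In Cr2 the matches to CCACCC, read on the other strand, and to TGGGAA overlap between 223 and 215 bases before the start. These are matches of letters, and binding was not measured.

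**Figure D5:**
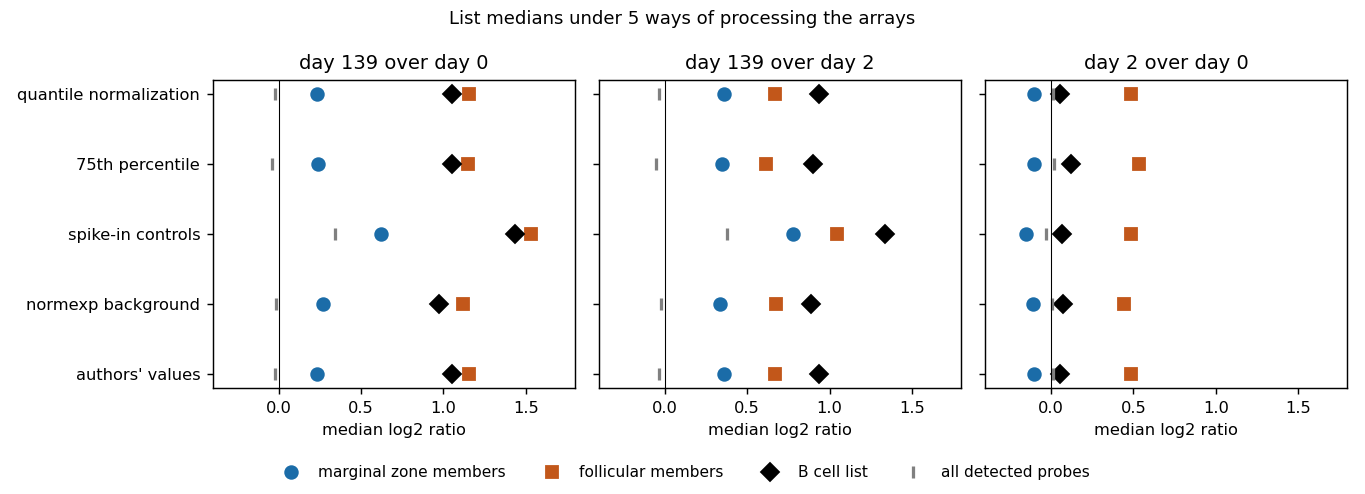
Median log2 ratio of the marginal zone genes (blue circles), the follicular genes (orange squares), the B cell list (black diamonds) and all detected probes (grey ticks) under 5 ways of processing the arrays. Scaling to the spike-in controls moved all 4 medians of day 139 over day 0 to the right, the marginal zone one to 0.62 and that of all probes to 0.34, while the blue circles stayed left of the black diamonds in every row.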

How the data were processed

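For each array the authors deposited the scanner output, which gives linear intensity values for each spot and flags those well above background. It had been background-subtracted and spatially detrended in Agilent Feature Extraction, whose version is 10.7.1.1 per the file headers and 9.5.1.1 per the labels. They also deposited 1 table of quantile normalized intensity values, used here as an alternative. Different RNA kits are named in the labels and the paper.

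From these files control and outlier-flagged spots were left out, spots of a probe were averaged, and 55679 probes were quantile normalized over the 3 arrays, floored at 1 and taken to log2. Detected probes, 32108 in all, were well above background on at least 1 array. A gene was read by its brightest detected probe. Where a probe was not well above background in the dimmer sample, the fold is a lower limit, taken from whichever was greater, that probe's signal or the weakest signal well above background there. Repeat spots had a median CV of 4.00%, 4.78% and 3.54%, and the number of arrays, 3, limits the precision. No p-value was computed.

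The members, gene lists and calculations were chosen with earlier results of these data known, so no pattern here is independent support for another. The genes named are all members, the highest and lowest gene of a list for day 139 over day 0 among those well above background on all arrays, ligands, receptors, partners and targets of members, and the genes nearest to Cr2 and Fcer2a in their course. Mzb1, Ackr3 and Fcmr bear older names on the array. S1pr4, S1pr5, Lfng, Siglec1 and Cd209b were named after their values were seen.

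The alternatives were 75th percentile and spike-in scaling, normexp correction of the background (limma 3.58.1 in R 4.3.3, offset 50), the authors' values, other detection filters, flagged spots kept, another floor, a ratio limit of 2 and the study's criterion, and, after the data were seen, Cr2 by its dimmer probe. Calculations were run in Python 3.11.15 (numpy 2.4.6, pandas 2.3.3) and tested on simulated data.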

Additional observations from a re-analysis of the deposited data

How the results depend on the processing

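No paired analysis was possible because each condition has 1 array, and for the same reason no replicate could be left out. The spike-in controls were dimmer in Sample 3, at 65.8% of Sample 1, and scaling to them moved the median of all detected probes to 0.34 for day 139 over day 0 and 0.38 for day 139 over day 2. The marginal zone medians then were 0.62 and 0.78, the follicular medians 1.53 and 1.05, and 8 and 11 of the 12 probes passed 1.5-fold in place of 4 and 2. The marginal zone median lay 0.81 and 0.56 below the B cell median under this scaling. A common factor for each array shifts all ratios of a comparison alike, so the spike-in controls could not change this gap. With Cr2 read by its dimmer probe, the marginal zone median of day 139 over day 0 was 0.44, and its difference from the follicular median -0.71. A ratio limit of 2 left 2 probes for day 139 over day 0, 1 for day 139 over day 2 and 0 for day 2 over day 0, where 1.5 gave 4, 2 and 1. The study's criterion left 1 probe for day 139 over day 0 and 0 for day 139 over day 2, and with 1 SD over all probes it left 0 in all 3 comparisons. The detection filters and the other floor could not move the marginal zone and follicular medians, since the brightest probe of each member was well above background on every array. The authors' values were quantile normalized from the same arrays, so they are no separate check. In the other settings tried, these medians moved by less than the scanner error, and among single members only Fcer2a moved by more, to 1.42 with normexp. The cause of these shifts was not tested.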
